A study of Mus musculus with 17 samples.

Results

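The genes described here encode 9 receptors for hematopoietic cytokines, chosen by gene symbol from the 47069 genes listed for the libraries labelled LUC and Arid3a and followed by Ensembl identifier through all 17 RNA sequencing libraries. They are Csf2rb, Csf2rb2, Csf2ra, Il3ra, Kit, Epor, Flt3, Il6st and Il7r. The libraries came from mouse fetal liver cells of embryonic days E12.5 to E13.5, taken from a mouse strain that carries a CAG-driven Cas9 and EGFP transgene at the Rosa26 locus. All groups but WT carried sgGata1, a guide RNA against Gata1, and are Gata1s cells, named for a truncated GATA1, the transcription factor of megakaryocytes and red cells. The groups then differed in a further construct: LUC, a luciferase control (n = 3), and Arid3a (n = 3), both with 48 h of doxycycline at 1 µg/mL, then sh-ctrl, a control hairpin (n = 3), shArid3a, a hairpin against Arid3a (n = 2), and miR-125b (n = 3), these with 10 days of doxycycline at 1 µg/mL. The WT cells (n = 3) carried sgLuc and shLuc, a guide and a hairpin against luciferase, and had no doxycycline. The series set out to change the level of Arid3a in Gata1s fetal liver cells. The labels do not say whether the libraries of a group came from separate embryos or cultures, so p-values measure only the spread between these libraries, which may be technical.

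Cytokine receptors of this kind let blood progenitors respond to growth factors. Csf2rb is the signalling beta chain shared by the receptors for IL-3, GM-CSF and IL-5, and it binds these ligands with a private alpha chain: Csf2ra for GM-CSF and Il3ra for IL-3. Mice carry a second beta chain, Csf2rb2, which serves IL-3 alone. Kit and Flt3 are receptor tyrosine kinases for stem cell factor and FLT3 ligand, while Epor, Il6st (gp130, shared by the IL-6 family) and Il7r lack a kinase of their own and signal through JAK kinases and STAT factors. In the fetal liver these receptors are known for their parts in the growth of stem cells, megakaryocytes, red cell precursors, mast cells and early lymphoid cells.

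Totals ranged from 31339238 to 40859301 counts in the 14 Gata1s libraries and from 16362439 to 19212193 in WT. Levels are read counts scaled to library size (CPM), with TMM factors over all 17 libraries. The 6 megakaryocyte markers (Itga2b, Itgb3, Gp9, Gp1bb, Pf4 and Ppbp) were above 1 CPM on average in every group. Their summed level was 2623 to 4885 CPM in Gata1s libraries and 1087 to 1309 CPM in WT. Hepatocyte markers summed to at most 5.15 CPM in any library. Arid3a, the targeted gene, was at 49.7 to 63.8 CPM in sh-ctrl, 21.5 and 22.5 CPM in shArid3a, and 7.99 to 11.1 CPM in miR-125b. It fell by 1.43 on the log2 scale in shArid3a and fell by 2.56 in miR-125b (edgeR quasi-likelihood test with Benjamini-Hochberg adjustment, adjusted p = 0.0368 and 0.000282). The libraries labelled Arid3a held 53.3 to 74.5 CPM of it against 59.3 to 64.7 CPM in LUC (log2 fold change 0.08, adjusted p = 0.737), so the counts do not show the transgene that the label names, and each direction drawn from these libraries rests on the label. The counts are of Arid3a reads assigned to the annotated gene, and whether reads of a transgene would be assigned there was not tested.

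The sequence of the microRNA supplied to the miR-125b group is shown because its seed, in capitals (bases 2 to 8), sets which receptor transcripts hold a match. Mature miR-125b-5p comes from Mir125b-1, at chr9:41581940-41581961, and from Mir125b-2, at chr16:77646279-77646300, both on the plus strand (RefSeq, GRCm38.p6).
mmu-miR-125b-5p: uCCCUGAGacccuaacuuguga

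The 3′ untranslated regions (UTRs) of all 9 receptors in GENCODE M21 (GRCm38) were searched on the transcript's strand for CTCAGGG, and for the 8mer CTCAGGGA that contains it. The 8mer was found in 3 of 9 receptors, Csf2rb, Il6st and Il7r. Csf2rb and Il6st were among the 7 receptors with enough counts to be tested, and Il7r was not. Among 11505 tested genes with an annotated 3′ UTR the share was 5.92% for the 8mer and 16.58% for either match. The receptors and these genes were not matched for the length of the 3′ UTR. In Csf2rb the match lies in 1 of 3 coding transcripts, Csf2rb-204, whose 3′ UTR has 256 bases (chr15:78353663-78353670, plus strand), and not in the transcript with the longest 3′ UTR of 1816 bases. In Il6st it lies in 2 of 8 coding transcripts (chr13:112509640-112509647, plus strand). In Il7r it lies in both coding transcripts, at chr15:9506440-9506447 on the minus strand, but Il7r had no count in any library of the hairpin and microRNA groups. The matches to the seed are in capitals.
Csf2rb: aagaacagcttCTCAGGGActgggagggct
Il6st: ggtcccttgtgCTCAGGGAccaaatataga
Il7r: ttgattatattCTCAGGGActgcatgcaat

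Csf2rb and Csf2rb2 are neighbours on chromosome 15, at chr15:78325752-78353847 on the plus strand and chr15:78282507-78305721 on the minus strand (GRCm38, GENCODE M21). Their coding sequences, of 2691 and 2637 bases, were identical at 95.21% of aligned bases, with 126 mismatches and 66 gap columns. Of all 100-base windows of the longest coding transcript of Csf2rb, 6.96% occurred exactly in that of Csf2rb2. Reads from such windows can be given to either gene or dropped, depending on the authors' counting. A 90-base stretch of the coding sequence with the most differences between the genes, 16, is shown with the differing bases in capitals (coding bases 308 to 397 of Csf2rb and 311 to 400 of Csf2rb2).
Csf2rb: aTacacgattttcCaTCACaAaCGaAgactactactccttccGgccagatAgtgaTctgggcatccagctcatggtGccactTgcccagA
Csf2rb2: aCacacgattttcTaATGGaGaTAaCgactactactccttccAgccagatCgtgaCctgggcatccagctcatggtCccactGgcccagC
Another stretch of the same length, coding bases 662 to 751 of Csf2rb and 665 to 754 of Csf2rb2, had no difference at all, so a short read from it belongs to both genes.
Csf2rb and Csf2rb2: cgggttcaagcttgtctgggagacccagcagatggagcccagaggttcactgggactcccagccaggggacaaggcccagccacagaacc
Each gene also overlaps an annotated microRNA gene on its own strand. The pair is therefore given below both as 2 genes and as the sum of their counts.

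Csf2rb had the highest mean level of the 9 receptors per kilobase of exon in every group but shArid3a, though in LUC and miR-125b its range over libraries overlapped with that of Epor. Csf2rb was at 18.6 CPM per kb and Epor at 18.4 in LUC, and they were at 29.9 and 28.5 in miR-125b. In WT, Csf2rb was at 62.7, Csf2rb2 at 40.2, Csf2ra at 31.4 and Kit at 29.2 CPM per kb, with the last 2 overlapping. In shArid3a the first place went to Epor, at 24.0 CPM per kb against 10.0 for Csf2rb, without overlap. Il6st held between 0.321 and 1.58 CPM per kb in the 5 Gata1s groups, and Flt3 and Il7r reached at most 0.0654 CPM per kb there. With the gene lengths of the deposited tables in place of GENCODE exon lengths, the first place was the same in every group but lower ranks changed: Csf2rb2 moved below Csf2ra in LUC, shArid3a and WT, and Il3ra moved from rank 6 to rank 3 in shArid3a.

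**Figure D1:**
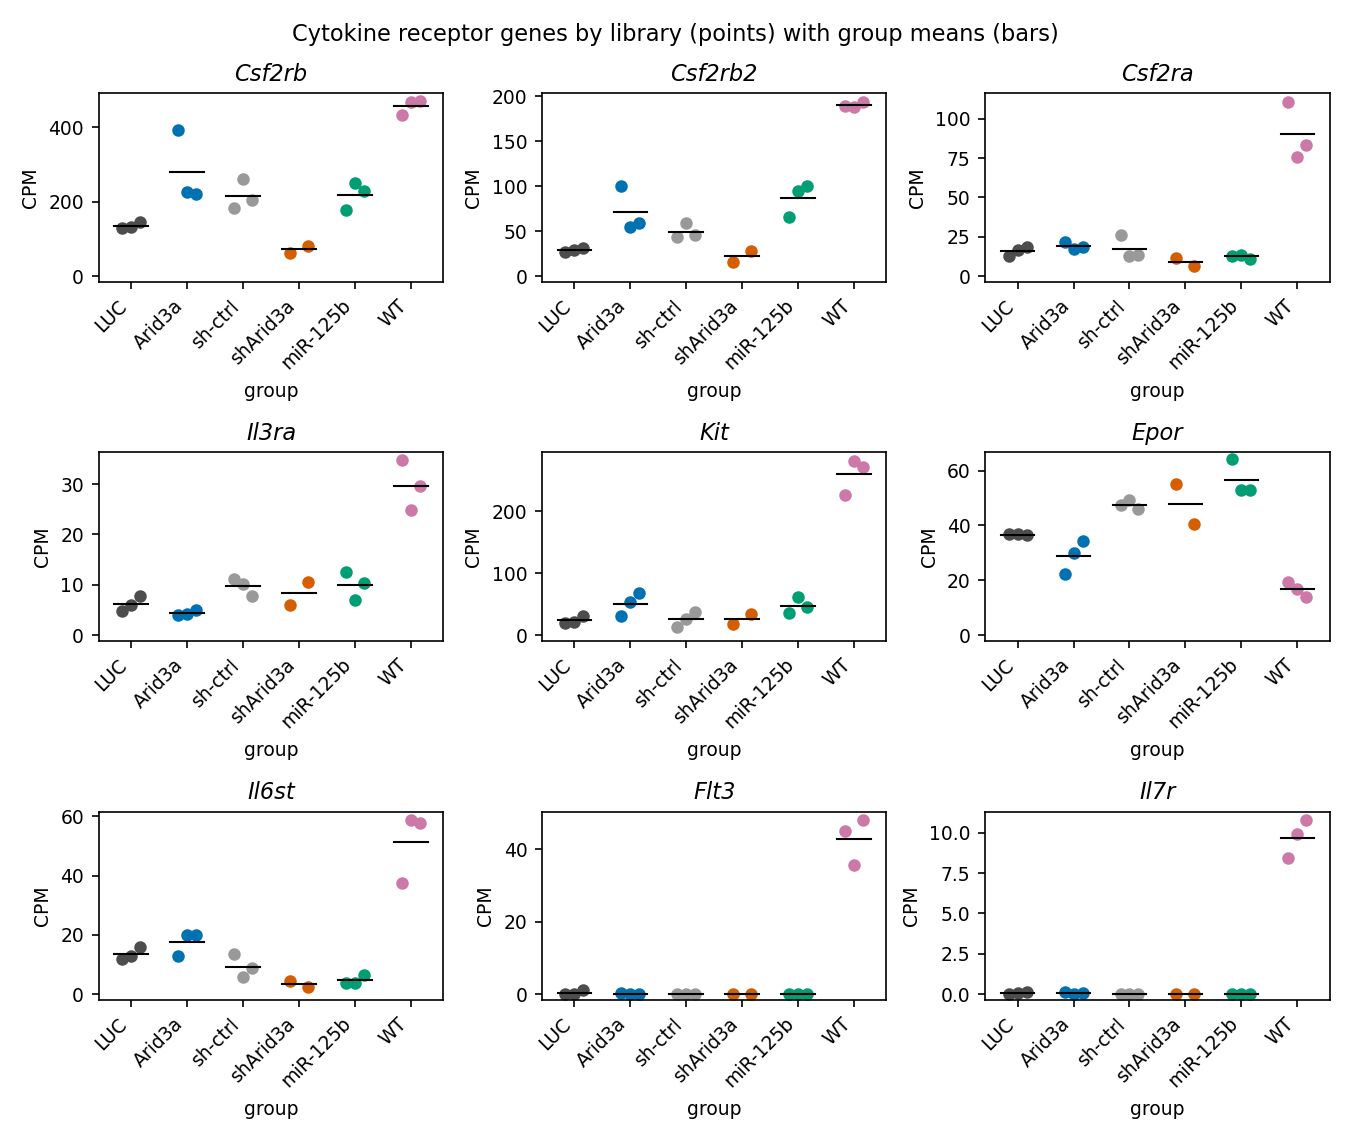
Level of each receptor gene in CPM (linear axis from 0, one panel per gene) in the 17 libraries, ordered by group, with points for libraries and bars for group means. WT is highest for 8 of the 9 genes and lowest for Epor, and the shArid3a points of Csf2rb, 62.6 and 82.2 CPM, lie under all others of that panel.

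Csf2rb, alone and summed with Csf2rb2, fell with the hairpin against Arid3a. It was at 184, 261 and 205 CPM in sh-ctrl and at 62.6 and 82.2 CPM in shArid3a. The groups did not overlap. Both shArid3a values were also below the 129, 133 and 144 CPM of LUC, which differs in doxycycline time and table and was not tested against them. LUC itself lay below sh-ctrl without overlap. The log2 fold change was -1.61 (SE 0.21), a 3.04-fold lower level, with adjusted p = 0.0292 (edgeR). Csf2rb2 was at 43.5, 58.6 and 45.9 CPM in sh-ctrl and at 16.2 and 28.3 CPM in shArid3a, again without overlap, but its log2 fold change of -1.18 (SE 0.26) did not pass the threshold (adjusted p = 0.0989, edgeR). Summed, the pair fell 2.86-fold, from 227, 319 and 251 CPM to 78.9 and 111 CPM (log2 fold change -1.52, SE 0.22, adjusted p = 0.0483, edgeR).

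The fall of Csf2rb and of the pair stood close to the threshold. Of 16 alternative fits, 10 called Csf2rb and 8 called the pair. With the replicate number as a block the adjusted p was 0.00944 for Csf2rb and 0.0165 for the pair (edgeR). The adjusted p of Csf2rb rose to 0.0524 without 5 ribosomal RNA-like genes in the fit, to 0.0827 without sh-ctrl replicate 2, to 0.119 without sh-ctrl replicate 3, to 0.0683 and 0.224 without shArid3a replicate 1 or 3, and to 0.0651 without miR-125b replicate 2, while its log2 fold change stayed between -1.80 and -1.44 over all 16 alternatives. The 9 receptors gave 1 call of 7 tested here, and 0.0857% of all 14004 genes tested were called.

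In miR-125b, where Arid3a was lower still than in shArid3a (log2 fold change -1.13, adjusted p = 0.0240, edgeR), no fall of Csf2rb was detected. It was at 177, 249 and 228 CPM, within the range of sh-ctrl apart from the lowest library (log2 fold change -0.01, SE 0.18, adjusted p = 0.972, edgeR). Csf2rb2 rose from 43.5, 58.6 and 45.9 CPM to 66.1, 94.8 and 100.1 CPM. These groups did not overlap, and the log2 fold change was 0.80 (SE 0.23), 1.74-fold, with adjusted p = 0.0297 (edgeR). That call was lost with scaling by library totals (adjusted p = 0.0765) and when sh-ctrl replicate 1 or 3, or miR-125b replicate 2 or 3, was left out (adjusted p up to 0.109). The pair, at 243, 343 and 328 CPM, overlapped with sh-ctrl (log2 fold change 0.18, SE 0.19, adjusted p = 0.516, edgeR). The part of Arid3a in these levels was not tested, and miR-125b and shArid3a differ in their construct.

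Set directly against shArid3a, both beta chains were higher in miR-125b. Csf2rb was 3.02-fold higher (log2 fold change 1.59, SE 0.21, adjusted p = 0.00953, edgeR) and Csf2rb2 3.93-fold higher (1.98, SE 0.27, adjusted p = 0.0105). The sum rose 3.23-fold (log2 fold change 1.69, SE 0.23, adjusted p = 0.00946). No library of either group overlapped with the other for these genes. Without shArid3a replicate 1 the adjusted p was 0.115 for Csf2rb, 0.0940 for Csf2rb2 and 0.112 for the sum, and without miR-125b replicate 2 it was 0.0528 for Csf2rb2. Some granulocyte and monocyte markers were higher in miR-125b too. Of the 8, 6 were tested, with median log2 fold changes of 1.68 against sh-ctrl and 2.33 against shArid3a. Against sh-ctrl 3 were called higher, where 24.4% of all genes were called. Against shArid3a 2 were called higher, where 1.35% of all genes were called. All 8 summed to 138, 100.2 and 184 CPM in miR-125b, to 39.5 and 75.3 CPM in shArid3a and to 60.9, 79.9 and 113 CPM in sh-ctrl. The sums of miR-125b and sh-ctrl overlapped. On average 5, 3 and 3 of the 8 reached 1 CPM in these groups, and Ly6c2 was at 0 in shArid3a and sh-ctrl, S100a8 in shArid3a. The part of such cells in the beta chain levels was not tested. This comparison shares the shArid3a and miR-125b libraries with the 2 comparisons against sh-ctrl, so the 3 are not independent.

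In the libraries labelled Arid3a both chains were higher than in LUC in every library, but neither passed the threshold. Csf2rb was at 129, 133 and 144 CPM in LUC and at 393, 226 and 221 CPM in the libraries labelled Arid3a (log2 fold change 1.06, SE 0.23, adjusted p = 0.0895, edgeR). Csf2rb2 was at 26.3, 29.1 and 31.1 CPM against 99.6, 54.8 and 59.0 CPM (1.31, SE 0.23, adjusted p = 0.0807). The sum went from 155, 162 and 175 CPM to 493, 281 and 281 CPM (1.10, SE 0.23, adjusted p = 0.0888). Replicate 1 of the Arid3a group stood far above replicates 2 and 3. Left out, it reduced the log2 fold change of the sum to 0.78, with adjusted p = 0.000444, and Csf2rb, Csf2rb2, Kit and Il6st all passed the threshold, as did 3198 of all genes (23.2%). None of the 7 receptors tested was called with all 6 libraries, where 4 of them and 2885 of all 13495 genes had an unadjusted p under 0.05. The share of all genes called was 0%. DESeq2 called 3 receptors, Csf2rb, Csf2rb2 and Kit, and 1342 of all genes.

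**Figure D2:**
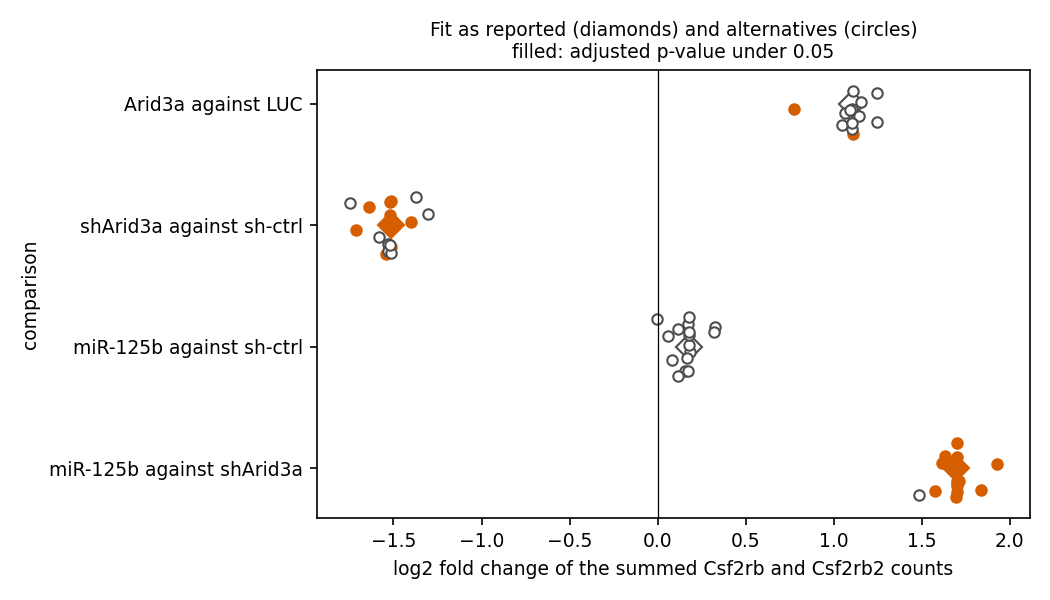
Log2 fold change of the summed Csf2rb and Csf2rb2 counts (x axis) in the 4 comparisons (rows), with a diamond for the fit as reported and a circle for each alternative fit, filled where the adjusted p-value was under 0.05; vertical scatter within a row has no meaning. The hairpin row holds values from -1.75 to -1.31, filled and open, the row of miR-125b against sh-ctrl stays near 0, and the isolated filled circle at 0.78 in the top row is the fit without replicate 1 of the Arid3a group.

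The balance between the chains differed among groups. Csf2rb2 made up 16.98% to 17.97% of the pair's counts in the LUC libraries and 18.3% to 19.1% in sh-ctrl. It made up 19.5% to 21.0% in the libraries labelled Arid3a, 20.6% and 25.6% in shArid3a, 27.2% to 30.5% in miR-125b and 28.8% to 30.4% in WT. The mean shares were 18.6% ± 0.467 (SD, n = 3) in sh-ctrl and 28.4% ± 1.82 (SD, n = 3) in miR-125b, a difference of 9.85 percentage points. In all 4 comparisons the groups did not overlap, and each two-sided exact permutation test gave p = 0.1, the smallest value that these group sizes allow (0.1 after adjustment over the 4 tests), so no difference in share could pass the threshold. Since the authors' treatment of reads that fit both genes is not known, the share is one of assigned reads.

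**Figure D3:**
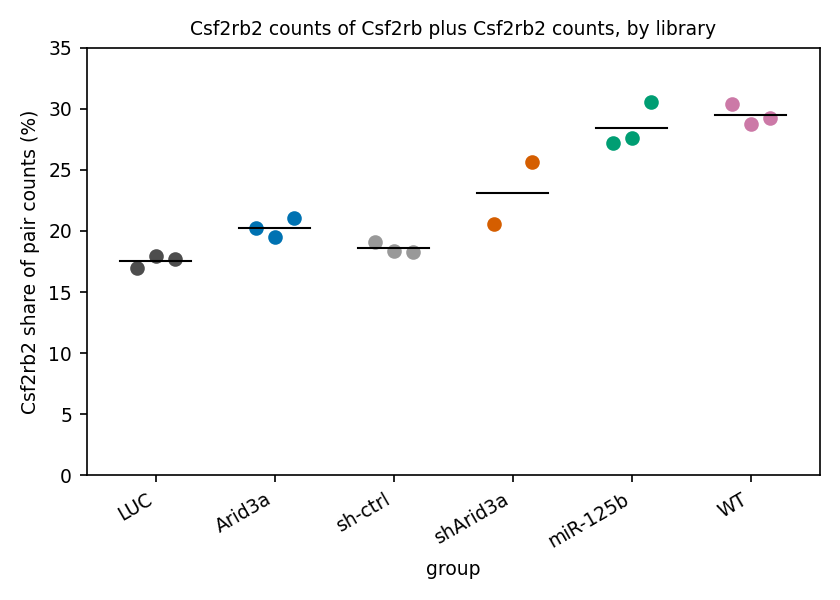
Share of Csf2rb2 in the summed counts of Csf2rb and Csf2rb2 (percent, axis from 0), with points for libraries and bars for group means. The miR-125b libraries, at 27.2% to 30.5%, lie at the height of WT and above all other groups, and the LUC and sh-ctrl libraries, at 16.98% to 19.1%, lie lowest.

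The alpha chains were lower in mean CPM than both beta chains in every group, though not in every order per kb given above. Neither passed the threshold in any comparison. Csf2ra (chr19:61223957-61228429, minus strand) was at 26.3, 12.7 and 13.4 CPM in sh-ctrl, 11.9 and 6.63 CPM in shArid3a, and 12.95, 13.5 and 11.2 CPM in miR-125b. The shArid3a values lay below all sh-ctrl values (log2 fold change -0.93, SE 0.37, adjusted p = 0.156, edgeR). Without sh-ctrl replicate 1, the highest library, the log2 fold change was -0.53, and without shArid3a replicate 3, the lowest, it was -0.55. In LUC and in the libraries labelled Arid3a, Csf2ra was at 15.8 ± 2.94 and 19.2 ± 2.54 CPM (SD, n = 3), with overlap.

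Il3ra (chr14:14346275-14356011, plus strand) was at 11.1, 10.2 and 7.81 CPM in sh-ctrl, 6.08 and 10.5 CPM in shArid3a and 12.6, 7.03 and 10.4 CPM in miR-125b, and these 3 groups overlapped. Its log2 fold change was -0.25 (SE 0.33) with the hairpin and 0.03 (SE 0.30) with miR-125b. In the libraries labelled Arid3a it was at 4.03, 4.16 and 4.90 CPM against 4.79, 5.96 and 7.80 CPM in LUC (log2 fold change -0.50, SE 0.23, adjusted p = 0.258, edgeR), the opposite sign to the beta chains there. An antisense gene, Gm48860, overlaps Il3ra, and without knowledge of strand in the counting its reads cannot be told apart from those of Il3ra.

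Kit, the stem cell factor receptor (chr5:75574916-75656722, plus strand), was at 13.5, 25.5 and 37.9 CPM in sh-ctrl and 18.1 and 34.1 CPM in shArid3a, in the same range (log2 fold change 0.00, SE 0.40, adjusted p = 0.999, edgeR). In miR-125b it was at 35.4, 61.5 and 44.8 CPM. These values overlapped with sh-ctrl, whose replicates spread nearly as widely, and the log2 fold change of 0.86 (SE 0.36) did not pass (adjusted p = 0.0989, edgeR). Libraries of the same number tended to deviate together in these groups. An exception was miR-125b replicate 2, closer to sh-ctrl replicate 3 (r = 0.205) than to sh-ctrl replicate 2 (r = 0.150). With the replicate number as a block, the log2 fold change of Kit was 0.94 and its adjusted p 0.0140 (edgeR), which makes 2 receptors called in place of 1. Of all genes tested, 26.3% were called with that block. Each miR-125b library exceeded the sh-ctrl library of its own number.

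In the libraries labelled Arid3a, Kit was at 31.4, 53.2 and 67.4 CPM against 20.4, 21.8 and 31.6 CPM in LUC (log2 fold change 1.04, SE 0.29, adjusted p = 0.111, edgeR). Replicate 1, the highest of the group for Csf2rb, was the lowest for Kit and lay just under the highest LUC library. Mast cells carry Kit and the IL-3 receptor at high levels, so the 9 mast cell and basophil markers were read beside it. They summed to 165, 2.30 and 43.3 CPM in the libraries labelled Arid3a, with Mcpt4 at 0 in all 3, and to 27.1 to 33.5 CPM in LUC. In the other table they summed to 87.4, 7.09 and 99.8 CPM in sh-ctrl, to 13.03 and 103 CPM in shArid3a, and to 437, 39.7 and 34.2 CPM in miR-125b. On average 4, 5, 5, 4 and 9 of the 9 markers reached 1 CPM in LUC, Arid3a, sh-ctrl, shArid3a and miR-125b. All 9 were tested in miR-125b. There 2 were called higher against sh-ctrl, where 24.4% of all genes were called, and 0 against shArid3a (median log2 fold changes of 2.08 and 2.15). Of 6 tested in Arid3a against LUC, 0 were called (median 0.88). The highest sums, in replicate 1 of the Arid3a and miR-125b groups, went with the lowest Kit value of each group, and with the highest Csf2rb value in the Arid3a group but the lowest in miR-125b. The part of such cells in the receptor values was not tested, and in bulk RNA fewer cells of a type and less RNA per cell cannot be told apart.

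Flt3 (chr5:147330741-147400489, minus strand) was nearly without counts in Gata1s cells. It had 820, 759 and 1064 counts in the WT libraries, which is 44.9, 35.6 and 48.0 CPM. The 14 Gata1s libraries held 8 counts or fewer, apart from 40 in LUC replicate 3. That library also had the highest granulocyte and monocyte marker sum of its group, 95.6 CPM against 11.5 and 10.6 CPM in replicates 1 and 2. The part of such cells in the Flt3 counts was not tested. Flt3 was not tested in any comparison because it failed the filter on low counts, and an antisense gene, Gm26597, overlaps it.

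Epor, the erythropoietin receptor (chr9:21958897-21963506, minus strand), which drives red cell precursors to survive and divide, passed in no comparison. It was at 36.7, 36.7 and 36.5 CPM in LUC and at 22.4, 29.9 and 34.1 CPM in the libraries labelled Arid3a. The groups did not overlap, and the log2 fold change was -0.35 (SE 0.14, adjusted p = 0.223, edgeR). It was at 47.3, 49.4 and 45.9 CPM in sh-ctrl, 54.95 and 40.5 CPM in shArid3a, and 64.1, 52.9 and 52.9 CPM in miR-125b. The log2 fold changes were -0.01 (SE 0.17) with the hairpin and 0.23 (SE 0.15) with miR-125b (adjusted p = 0.974 and 0.282). All miR-125b values lay above all sh-ctrl values. The 6 erythroid markers summed to 176, 137 and 261 CPM in sh-ctrl, 171 and 154 CPM in shArid3a, 151, 84.6 and 107 CPM in miR-125b, 61.2, 90.5 and 62.8 CPM in LUC and 64.2, 179 and 154 CPM in the libraries labelled Arid3a. On average 4 of the 6 reached 1 CPM in each group, and Slc4a1 was at 0 in all of these groups but Arid3a. The part of red cell precursors in the Epor levels was not tested.

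Il6st, the gp130 chain (chr13:112464070-112510086, plus strand), had lower values in both the hairpin and the microRNA group. It was at 13.4, 5.66 and 8.87 CPM in sh-ctrl, 4.58 and 2.54 CPM in shArid3a, and 3.60, 3.79 and 6.63 CPM in miR-125b. The shArid3a values lay below all sh-ctrl values, while 1 miR-125b library lay within their range. The log2 fold changes were -1.40 (SE 0.46, adjusted p = 0.120, edgeR) and -1.01 (SE 0.40, adjusted p = 0.0871), and neither passed the threshold. Both passed with DESeq2 (adjusted p = 0.0228 and 0.0389). Its 3′ UTR holds the seed match shown above, whose part in these values was not tested. Both comparisons share the sh-ctrl libraries. In the libraries labelled Arid3a it was at 12.9, 19.8 and 20.0 CPM against 11.8, 12.9 and 15.8 CPM in LUC (log2 fold change 0.38, SE 0.20, adjusted p = 0.312).

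Il7r (chr15:9505788-9530176, minus strand) had no count in the 8 libraries with a hairpin or miR-125b and at most 5 counts in LUC and Arid3a libraries. WT held 154, 211 and 239 counts, 8.44, 9.90 and 10.8 CPM. Against the level that 3 counts would give in a library, which a count of 0 allows, mean CPM over library totals in WT was at least 118-fold higher than in sh-ctrl, 136-fold than in shArid3a and 129-fold than in miR-125b. These limits cover counting error only.

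**Figure D4:**
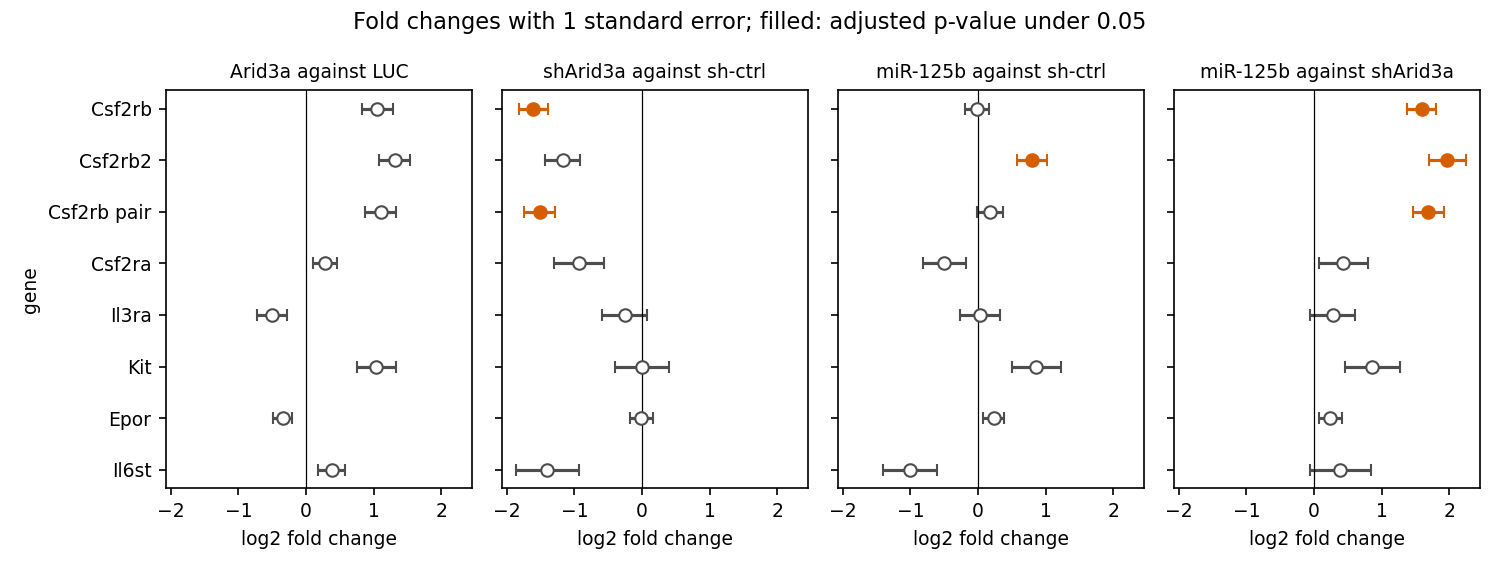
Log2 fold change with 1 standard error (x axis) of the 7 receptors tested and of the Csf2rb and Csf2rb2 sum (rows) in the 4 comparisons (panels), filled where the adjusted p-value was under 0.05. The filled points are Csf2rb and the sum with the hairpin, Csf2rb2 with miR-125b, and both chains and the sum in miR-125b against shArid3a; points of all other receptors are open.

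Counted over the receptors, 7 of 9 passed the filter on low counts in each comparison, and Flt3 and Il7r did not. In shArid3a against sh-ctrl all 7 had a negative log2 fold change, with a median of -0.93 beside -0.02 for all genes tested, although that of Kit was 0.00 to 2 decimals and its sign and those of Epor and Il3ra turned in some alternatives. In miR-125b against sh-ctrl 4 were positive and 3 negative (median 0.03 beside -0.03), and 1 of 7 was called where 24.4% of all genes were, a share near the background. In miR-125b against shArid3a all 7 were positive (median 0.44 beside -0.01), though Il3ra turned negative without shArid3a replicate 1, and 2 of 7 were called where 1.35% of all genes were. In the libraries labelled Arid3a 5 were positive and 2 negative (median 0.38 beside 0.01). Groups did not overlap for 3 of 7 receptors in Arid3a against LUC (Epor and the beta chains), where 27.6% of all genes did not overlap, and for 4 of 7 in shArid3a against sh-ctrl (Il6st, Csf2ra and the beta chains), where 44.2% did not. They did not overlap for 2 of 7 in miR-125b against sh-ctrl (Epor and Csf2rb2, background 45.2%) and for 3 of 7 in miR-125b against shArid3a (Kit and the beta chains, background 29.5%). Csf2rb and Csf2rb2 count as 2 receptors in all these numbers, and they are the 2 called in miR-125b against shArid3a. Reads from their shared stretches can be given to either gene, so the 2 are not independent.

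WT cells showed another receptor profile. Mean levels in WT were 457 ± 19.8 CPM (SD, n = 3) for Csf2rb, 191 ± 3.12 for Csf2rb2, 90.1 ± 18.5 for Csf2ra, 29.7 ± 4.98 for Il3ra, 259.9 ± 29.5 for Kit and 51.4 ± 12.0 for Il6st. Each of these was higher in every WT library than in every Gata1s library. Epor went the other way, at 19.3, 16.8 and 13.8 CPM in WT against 22.4 CPM or more in each Gata1s library. No test was made: WT differs from the other groups in genotype, in doxycycline, in its constructs and in its table, and these cannot be told apart. Granulocyte and monocyte markers went with WT: all 8 were above 1 CPM on average, and their sum was 11915 to 15322 CPM, against 9.01 to 184 CPM in Gata1s libraries. Mast cell and basophil markers summed to 1295 to 1559 CPM in WT and to at most 437 CPM elsewhere, and stem and early progenitor markers to 358 to 378 CPM against 75.7 to 219.9 CPM. The part of these cells in the WT receptor levels was not tested.

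The genes whose level was most like that of 3 receptors were sought over the 8 libraries of the sh-ctrl, miR-125b and shArid3a groups, by Pearson's r of log2 CPM among 8327 genes. For Csf2rb they were Tmem131l (r = 0.971), Mosmo (0.957) and Smad5 (0.956), the last a SMAD factor of BMP signalling. For Kit they were Phtf1 (0.977), Dtx4 (0.977) and Myb (0.955), the last a transcription factor of blood progenitors. For Epor they were Mapk3 (0.941), which encodes ERK1, Rcc2 (0.927) and the adaptor Grb2 (0.924). These values describe 8 libraries that share their groups and are the highest of many genes.

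The rest of the pathway was read from 102 genes in 6 lists: ligands, other cytokine receptors, JAK and STAT genes, adaptors and kinases, inhibitors, and STAT targets. With the hairpin, none of the 83 tested was called with edgeR, 9 were with DESeq2, all lower, and 17 had an unadjusted p under 0.05. As shares these are 10.8% and 20.5%, beside 11.4% and 25.8% of all genes tested. In the libraries labelled Arid3a none of 80 was called with edgeR, 10 were with DESeq2, and 17 had an unadjusted p under 0.05. DESeq2 called 9.94% of all genes, and an unadjusted p under 0.05 was held by 21.3% of the listed genes and 21.4% of all. Without replicate 1 of the Arid3a group 26 of 83 were called, 23 of them higher, a share of 31.3% beside 23.2% of all genes. With miR-125b, 22 of 83 passed against sh-ctrl, 19 of them lower, a share near the 24.4% of all genes. The directions of all called genes were not compared with this split. With scaling by library totals 26 passed, all lower, and without sh-ctrl replicate 3 only 8 did. Their shares, 31.3% and 9.64%, stood beside 23.9% and 5.30% of all genes.

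Among JAK and STAT genes, 5 of 11 fell with miR-125b and none rose (list median -0.44 beside -0.03 for all genes). Tyk2, a JAK kinase of interferon and IL-12 receptors, fell from 81.3, 58.9 and 83.9 CPM to 27.0, 27.8 and 28.7 CPM (log2 fold change -1.44, SE 0.19, adjusted p = 0.00429, edgeR). Stat5b, a main effector of these receptors, fell by 0.87 on the log2 scale, from 73.6, 71.4 and 102 CPM to 49.1, 45.1 and 42.8 CPM (adjusted p = 0.00984). Both calls held in all 16 alternatives. Stat6, the factor downstream of IL-4, fell by 0.60 (adjusted p = 0.0189). Its call was lost when sh-ctrl replicate 3 or miR-125b replicate 1 or 2 was left out, while its log2 fold change stayed between -0.80 and -0.54 over all 16 alternatives.

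Of 16 adaptors and kinases, 5 fell and 1 rose with miR-125b. Pik3cd, a PI3 kinase subunit, fell from 580.3, 515 and 599 CPM to 321, 346 and 282 CPM (log2 fold change -0.86, SE 0.15, adjusted p = 0.00782, edgeR), and the adaptor Shc1 fell by 0.62 (adjusted p = 0.00899). Fyn, a SRC family kinase, rose from 75.9, 65.5 and 63.7 CPM to 95.4, 114 and 97.5 CPM (log2 fold change 0.56, adjusted p = 0.0153), a call lost with scaling by library totals and without sh-ctrl replicate 3. Of 20 inhibitors, 7 fell and 2 rose. Socs4, a suppressor of cytokine signalling, fell by 0.87 (adjusted p = 0.00621), the phosphatase Ptpn1 by 0.70 (adjusted p = 0.0107) and the lipid phosphatase Inpp5d (SHIP1) by 0.53 (adjusted p = 0.0182). The Inpp5d call was lost when replicate 3 of sh-ctrl or of miR-125b was left out.

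Of 15 other cytokine receptors tested, Il10ra alone was called, at 9.55, 1.89 and 9.52 CPM in sh-ctrl and 0.607, 0.703 and 0.755 CPM in miR-125b (log2 fold change -3.35, SE 0.61, adjusted p = 0.00790, edgeR). Of 15 STAT targets Pim1, a survival kinase, was the only one called, and it fell 2.07-fold (log2 fold change -1.05, SE 0.21, adjusted p = 0.0107). None of 6 ligands tested was called. In miR-125b against shArid3a 3 of 83 genes of the lists passed, 3.61% beside 1.35% of all genes. Tyk2 was lower by 1.04 on the log2 scale (adjusted p = 0.0450, edgeR) and Fyn higher by 1.01 (adjusted p = 0.0125). Ccnd1, the D-type cyclin gene, was at 2.99 and 2.81 CPM in shArid3a and 17.4, 18.7 and 16.3 CPM in miR-125b (log2 fold change 2.59, SE 0.37, adjusted p = 0.0121). Its mean in sh-ctrl was 13.7 CPM. Against sh-ctrl it was called neither in shArid3a (log2 fold change -2.25, adjusted p = 0.0702, edgeR) nor in miR-125b (0.33, adjusted p = 0.429). The Tyk2 call was lost in 9 of 16 alternatives, the replicate block among them (log2 fold change -0.93, adjusted p = 0.0634), and those of Fyn and Ccnd1 without either shArid3a library or miR-125b replicate 2.

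**Figure D5:**
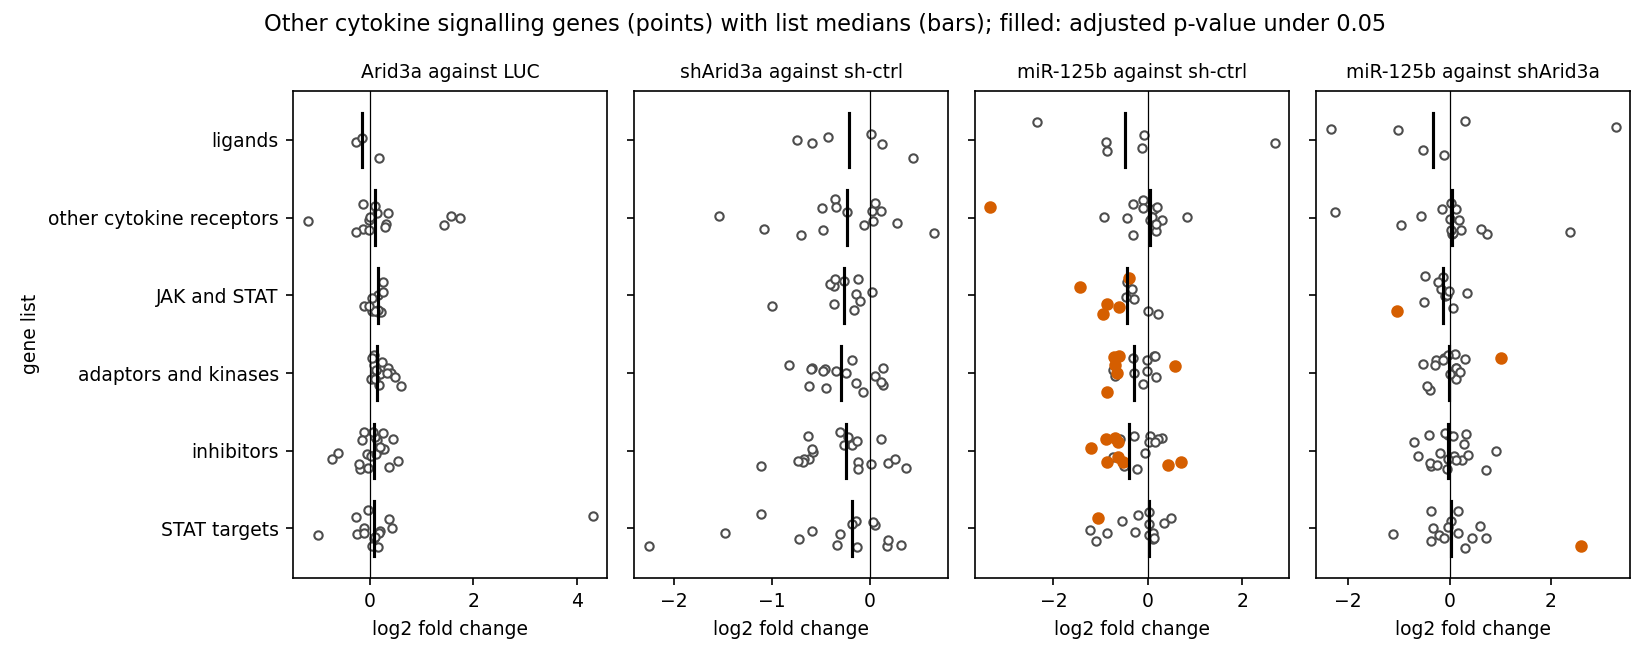
Log2 fold change (x axis, own scale in each panel) of the tested genes of the 6 cytokine signalling lists (rows) in the 4 comparisons (panels), with a point per gene, a bar at each list's median, and filled points where the adjusted p-value was under 0.05. Filled points are frequent only in miR-125b against sh-ctrl, 22 of 83, most of them left of 0.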

How the data were processed

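RNA sequencing counts of 17 libraries in 6 groups were taken from 3 deposited tables: LUC with Arid3a, sh-ctrl with shArid3a and miR-125b, and WT. The authors deposited raw read counts per gene, whole numbers with no normalization, and a gene length, which was used only for an alternative order of levels. Per the labels' protocols, RNA was extracted with Quick-RNA Miniprep (Zymo) and libraries followed standard Illumina protocols. The submitters' processing notes name fastp, HISAT2 2.0.5, featureCounts and mm10, with no role or order, and the use of strand and the handling of reads that fit several genes are not given in the sources used here. Replicate 2 of shArid3a was not analysed here.

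Tables were joined by Ensembl identifier (46880 genes shared), and positions and UTRs come from GENCODE M21. Each table was fitted on its own in edgeR 4.0.16 (R 4.3.3): filterByExpr, TMM, glmQLFit and glmQLFTest with a term per group, and Benjamini-Hochberg adjustment over all genes tested. Genes with an adjusted p-value under 0.05 are called. The 8 libraries with a hairpin or miR-125b share an estimate of spread. For the pair fit, the counts of Csf2rb and Csf2rb2 were replaced by their sum. Standard errors were derived from F statistics, and log2 CPM used a prior count of 2. The fitting code was tested on simulated data. Shares were compared by exact permutation. Counts are reads without molecular identifiers, so floors of 3 counts cover counting error only.

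All 9 receptors are named in each comparison, along with up to 3 called genes per list with the smallest adjusted p-values, Arid3a and Gata1 as checks of the labels, and the 3 genes most like Csf2rb, Kit and Epor among those with a mean log2 CPM of at least 3. Gata1 was called in no comparison (adjusted p from 0.162 to 0.736, edgeR). All groups compared carried sgGata1, so these comparisons cannot check the Gata1s label. Gata1 was at 60.0 to 71.8 CPM in WT and at 233 to 595 CPM in Gata1s libraries. Arid3a was at 211 to 264 CPM in WT and at most 74.5 CPM in Gata1s libraries. Neither gene was tested against WT, which also differs in doxycycline, constructs and table. Of 163 distinct listed symbols, 162 matched, and Flt3l did not. The receptors and lists were chosen with earlier results of these data known. Marker lists for erythroid, lymphoid, endothelial and stromal cells were read too, and lymphoid markers summed to at most 3.25 CPM and endothelial and stromal markers to at most 12.7 CPM in any library.

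To see whether same-numbered libraries belong together, their deviations of log2 CPM from the group means were correlated. For miR-125b and sh-ctrl, libraries 1, 2 and 3 gave 0.426, 0.150 and 0.294. Libraries of different numbers gave -0.364 to 0.205, the highest for miR-125b replicate 2 and sh-ctrl replicate 3. The numbers were taken to pair these libraries, which is uncertain for replicate 2. A fit with a replicate block is given beside a receptor or named gene whose call it changes, and for Csf2rb and the pair with the hairpin. Alternatives were other filters on low counts, DESeq2 1.42.0, library totals, a replicate block, a robust fit, only the groups compared, leaving out each library, and leaving out 5 ribosomal RNA-like genes (Lars2, Gm23935, Gm15564, Gm24270 and CT010467.1).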

Additional observations from a re-analysis of the deposited data

Results flagged for a closer look

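The WT libraries entered no test, and 8 of the 9 receptors had a higher level in each of them than in any LUC or sh-ctrl library, the controls among Gata1s cells. Mean WT levels were 457 CPM for Csf2rb, where the highest control library held 261 CPM, and 191 CPM for Csf2rb2 (58.6 CPM). They were 90.1 CPM for Csf2ra (26.3 CPM), 29.7 CPM for Il3ra (11.1 CPM) and 260 CPM for Kit (37.9 CPM). Flt3 was at 42.8 CPM (1.19 CPM), Il6st at 51.4 CPM (15.8 CPM) and Il7r at 9.71 CPM (0.119 CPM). Genotype, doxycycline, second transgene and deposited table cannot be told apart in this contrast, which was not tested.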

How the results depend on the processing

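The number of receptors called moved with several choices. In Arid3a against LUC it was 0, with 1 without the filter on low counts, 3 with DESeq2 and 0 to 4 when a library was left out. In shArid3a against sh-ctrl it was 1, with 3 without the filter, 3 with DESeq2, 0 without ribosomal RNA-like genes and 0 to 2 leaving out a library. In miR-125b against sh-ctrl it was 1, with 3 without the filter, 3 with DESeq2, 0 with library totals, 2 with the replicate block and 0 to 1 leaving out a library. In miR-125b against shArid3a it was 2, with 3 without the filter and 0 to 2 leaving out a library. The shares of all genes called moved too. Without the filter they were 0.321%, 5.70%, 18.4% and 3.30% in the 4 comparisons in this order. With DESeq2 they were 9.94%, 11.4%, 31.2% and 5.21%. In miR-125b against sh-ctrl library totals gave 23.9% and the block 26.3%. The 4 receptors called without replicate 1 of the Arid3a group stood beside 23.2% of all genes. The summed Csf2rb and Csf2rb2 kept their direction in all alternatives but 1: against sh-ctrl, miR-125b gave -0.0033 with library totals, a scaling that moves the median of all genes from -0.03 to -0.22 there. For the sum, Arid3a against LUC passed with DESeq2 (1.11) and gave 0.78 to 1.25 leaving out a library. The hairpin's value missed the threshold without ribosomal RNA-like genes (-1.53) and with only the groups compared (-1.52), and ranged from -1.75 to -1.31 leaving out a library, where it missed without sh-ctrl replicate 2 or 3, either shArid3a library, or miR-125b replicate 2 or 3. In miR-125b against shArid3a it was 1.49 to 1.93.

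Small fold changes turned sign without passing, and the cause was not tested. With the hairpin, leaving out a library in turn gave -0.67 to 0.078 for Il3ra, -0.50 to 0.38 for Kit and -0.27 to 0.21 for Epor, and Kit was at 0.16 with the replicate block. With miR-125b against sh-ctrl it gave -0.13 to 0.14 for Csf2rb and -0.17 to 0.23 for Il3ra, which was at -0.17 with library totals and -0.0064 with the replicate block. Against shArid3a it gave -0.051 to 0.70 for Il3ra. The libraries whose absence turned a sign were shArid3a replicate 1 (Il3ra and Kit), shArid3a replicate 3 (Epor), sh-ctrl replicate 2 (Epor and Csf2rb), sh-ctrl replicate 3 (Kit and Il3ra), miR-125b replicate 1 (Csf2rb and Il3ra) and miR-125b replicate 3 (Kit and Il3ra).

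The block changed no other receptor's call, and among the listed genes it called 21 in place of 22 in miR-125b against sh-ctrl and 2 in place of 3 against shArid3a. In Arid3a against LUC same-numbered libraries correlated at 0.158, 0.365 and 0.0085, and those of different numbers at -0.345 to 0.200. The numbers were not taken as pairs there. These values overlap with those of miR-125b and sh-ctrl, so the choice is a judgement. The block called 0 genes in Arid3a against LUC, as without it, and 15 in place of 12 with the hairpin. Over all alternatives the genes called numbered 0 to 3198 in Arid3a against LUC, 0 to 1600 in shArid3a against sh-ctrl (12 as reported), 734 to 4367 in miR-125b against sh-ctrl (3414) and 12 to 729 in miR-125b against shArid3a (189), the highest with DESeq2 except in Arid3a against LUC, where it was without replicate 1 of the Arid3a group. Where a left-out library leaves a lone shArid3a library, its spread is assumed to be that of the other groups. Most counts of Flt3 and Il7r in Gata1s libraries lay at or under the floor of 3, so differences among these groups were not detectable at this depth.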
